A study of Saccharomyces cerevisiae with 32 samples.

Results

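The mitochondrial ribosomal protein genes of budding yeast were followed across 3 strains, 4 carbon sources and both oxygen conditions. A gene was counted if its symbol in the expression table began with MRPL, MRPS, MRP or RSM followed directly by a digit, and 66 of the 6328 genes in the table did so. By the usual nomenclature 37 of them encode proteins of the large subunit, 28 encode proteins of the small subunit and 1, MRP8, encodes neither. MRP8 was named for a resemblance in sequence and is no longer held to be ribosomal, but its name puts it in the set. The name rule leaves out ribosomal proteins with other names, such as Nam9 and Pet123 of the small subunit and Yml6 of the large subunit, and these are given further on as a separate list. It also leaves out YNL122C, which the table lists by its systematic name and RefSeq lists as MRP35.

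The RNA came from Y22-3, a Saccharomyces cerevisiae strain that tolerates stress, and from 2 strains descended from it by selection on xylose. All 3 strains carry inserted genes for a xylose isomerase from Clostridium phytofermentans, a xylulose kinase (XYL3) from Scheffersomyces stipitis and a transaldolase. Y127 was evolved from Y22-3 with oxygen and has null alleles of ISU1, which encodes a scaffold for iron-sulfur clusters, and of HOG1, which encodes a stress kinase. Y128 was evolved from Y127 without oxygen and has in addition lost GRE3, an aldose reductase, and IRA2, a brake on Ras signalling. Each strain was cultured at 30 °C in rich medium with 2% xylose or 2% glucose, without oxygen and with it, and each of these 12 groups had 2 libraries collected on different days. Y22-3 and Y128 were also cultured in galactose and in sorbitol, without and with oxygen, with 1 library for each of these 8 conditions. Y22-3 and Y127 in anaerobic xylose, and Y22-3 and Y128 in sorbitol, were described as not growing after transfer from a saturated culture, so growth and condition cannot be told apart there. Each strain is a single lineage, so a difference between strains is a difference between these 3 strains.

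The mitochondrial ribosome translates the few proteins that the mitochondrial genome encodes, which in budding yeast are core subunits of the respiratory chain and the ATP synthase and the ribosomal protein Var1. All its other proteins are encoded in the nucleus, made in the cytosol and imported. Some descend from bacterial ribosomal proteins, while others have no bacterial counterpart and were added to the particle during the evolution of mitochondria. In Saccharomyces cerevisiae their transcripts are known targets of the RNA-binding protein Puf3, and genes of respiration as a whole are known to be repressed by glucose and to need oxygen and haem for full expression.

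The values are log2 RPKM, reads per kilobase of gene scaled to the mapped reads of the library, on a log2 scale, so that a difference of 1 is a doubling and levels can be compared between genes. Library totals, estimated from the values of genes without reads, ran from 7.53 to 24.1 megareads. Duplicates correlated across genes at r of 0.975 to 0.994. The duplicates of Y127 in aerobic xylose stood furthest apart, with a median difference between replicates A and B of 0.46 over all tested genes and of 0.56 over the 66 genes. Genes were tested if their RPKM averaged 1 or more across the 24 duplicated libraries, which held for all 66 genes and for 5801 of the 6328. The lowest estimate for any of them in a duplicated library was 25 reads, for MRPL11 in replicate B of Y22-3 in anaerobic xylose.

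The 66 genes were expressed above the middle of the transcriptome in most conditions, and their levels moved with both sugar and oxygen. Without oxygen on xylose, Y22-3 had a median level of 5.35 ± 0.18 log2 RPKM, Y127 of 5.73 ± 0.27 and Y128 of 5.07 ± 0.02 (median of the gene means, ± the SD between the medians of the 2 libraries). With oxygen on xylose, Y22-3 had 5.99 ± 0.33, Y127 5.95 ± 0.44 and Y128 6.13 ± 0.05, and these 3 groups did not differ beyond that spread. On glucose without oxygen the medians were the lowest of the 4 duplicated groups of every strain, with Y22-3 at 4.75 ± 0.04, Y127 at 4.43 ± 0.04 and Y128 at 4.22 ± 0.23. On glucose with oxygen Y22-3 stood at 5.49 ± 0.01, Y127 at 5.31 ± 0.09 and Y128 at 4.72 ± 0.02. The median over all tested genes lay between 4.05 and 4.56 in 11 of these 12 groups and was 3.33 in Y22-3 in anaerobic xylose. In such bulk samples fewer cells of a type and less RNA per cell cannot be told apart, and RPKM is relative to the library total.

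**Figure D1:**
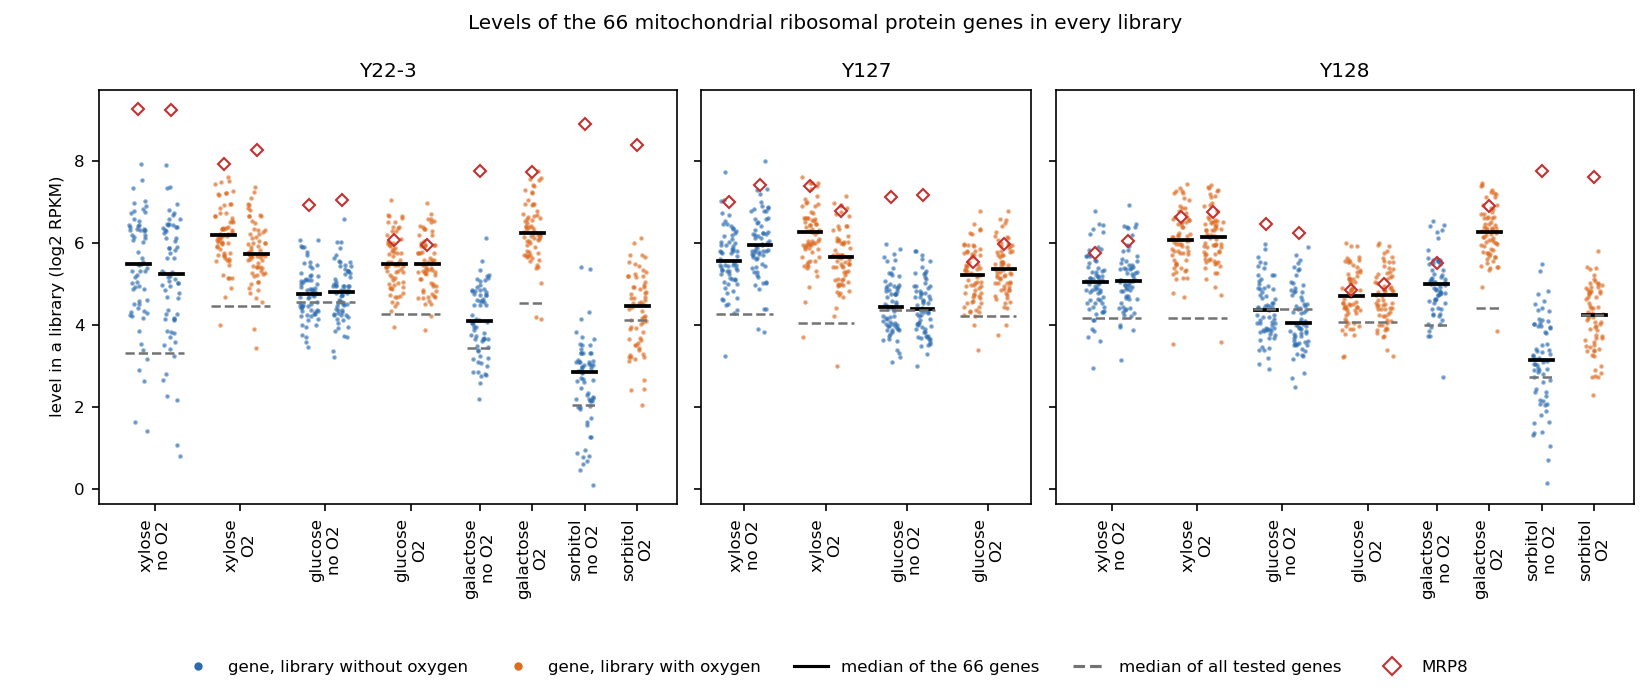
Level in log2 RPKM (vertical axis) of each of the 66 genes in each of the 32 libraries, with 1 panel for each strain. Black bars are medians of the 66 genes, dashed grey bars medians of all tested genes, and red diamonds MRP8. The genes lie highest in aerobic galactose and xylose and lowest in anaerobic sorbitol, and among the duplicated groups they spread most widely in anaerobic xylose of Y22-3.

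Over the 24 duplicated libraries the highest mean levels were those of MRP8 (6.80 log2 RPKM), MRPS12 (6.60) and MRPL39 (6.57). MRPS12 encodes uS12m, a protein of the decoding centre, and MRPL39 encodes bL33m of the large subunit. The lowest mean levels were those of RSM22 (3.32), MRPL4 (4.17) and MRPL44 (4.22). Rsm22 resembles a methyltransferase and is known for a role in assembly of the small subunit, and its gene was the lowest of the 66 in 11 of the 12 duplicated groups. MRPL4 encodes uL29m, at the exit of the peptide tunnel, and MRPL44 encodes mL53.

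On glucose, more of the genes fell than rose without oxygen in each of the 3 strains. On the deposited scale, those that fell were most in Y127 and fewest in Y128. In Y22-3, 48 of the 66 genes fell and 1 rose, against 27.6% of all tested genes lower and 37.7% higher (limma on the log2 values, Benjamini-Hochberg adjusted p under 0.05). In Y127, 57 fell and 1 rose, against 32.9% lower and 35.3% higher over all genes. In Y128, 33 fell and 3 rose, against 28.8% lower and 39.6% higher over all genes. The median change in Y22-3 was -0.74 over the 66 genes and 0.15 over all tested genes. It was -0.80 and 0.02 in Y127, and -0.42 and 0.18 in Y128. All 33 genes that fell in Y128 fell in the other 2 strains too, as did 1333 of the 1671 tested genes that fell in Y128. So 33 of the 66 genes fell in all 3 strains, against 23.0% of all tested genes. In at least 1 strain 57 of the 66 fell, against 36.4%. When the median over tested genes was subtracted from each library, 62 genes fell in Y22-3, 61 in Y127 and 57 in Y128. Over all tested genes 40.2%, 42.0% and 41.9% fell, so the order of Y22-3 and Y127 depended on the scaling. Without replicate B of the anaerobic Y128 libraries 17 genes fell there.

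MRPL20 fell most of the 66 genes on glucose in all 3 strains, and it encodes mL58, a protein without a bacterial counterpart. MRPL20 stood at 4.33 and 4.29 log2 RPKM in anaerobic Y22-3, against 5.75 and 5.76 with oxygen, a change of -1.45 ± 0.24 (SE; adjusted p = 2.9e-05, limma). In Y127 MRPL20 stood at 3.89 and 3.69 without oxygen, against 5.47 and 5.71 with it, a change of -1.80 ± 0.24 (adjusted p = 1.6e-06, limma). In Y128 MRPL20 stood at 3.69 and 3.54 without oxygen, against 5.13 and 4.93 with it, a change of -1.41 ± 0.24 (adjusted p = 2.9e-05, limma). In each strain both anaerobic libraries lay below both aerobic ones. MRPL19, which encodes uL11m of the stalk base, fell by 1.45 in Y22-3, and MRPL33, which encodes uL30m, fell by 1.505 in Y127 and by 1.17 in Y128.

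A few genes went the other way on glucose. MRP8 rose in every strain, standing at 6.93 and 7.05 log2 RPKM in anaerobic Y22-3, against 6.08 and 5.97 with oxygen (change 0.97 ± 0.20, adjusted p = 3.3e-04, limma). The rise of MRP8 was 1.404 ± 0.20 in Y127 (adjusted p = 4.3e-06, limma) and 1.43 ± 0.20 in Y128 (adjusted p = 3.4e-06, limma). In Y128, RSM19, which encodes uS19m of the small subunit head, stood at 5.98 and 5.91 without oxygen, against 5.13 and 5.04 with it (change 0.86 ± 0.21, adjusted p = 0.0011, limma). MRP20, which encodes uL23m at the tunnel exit, was the other gene that rose in Y128, by 0.64 ± 0.20 (adjusted p = 0.008, limma). RSM19 and MRPS12 are the only pair of the 66 that are next to each other in the RefSeq gene order of the strain S288C, and MRPS12 differed by -0.61 ± 0.17 in this comparison (adjusted p = 0.0036, limma).

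**Figure D2:**
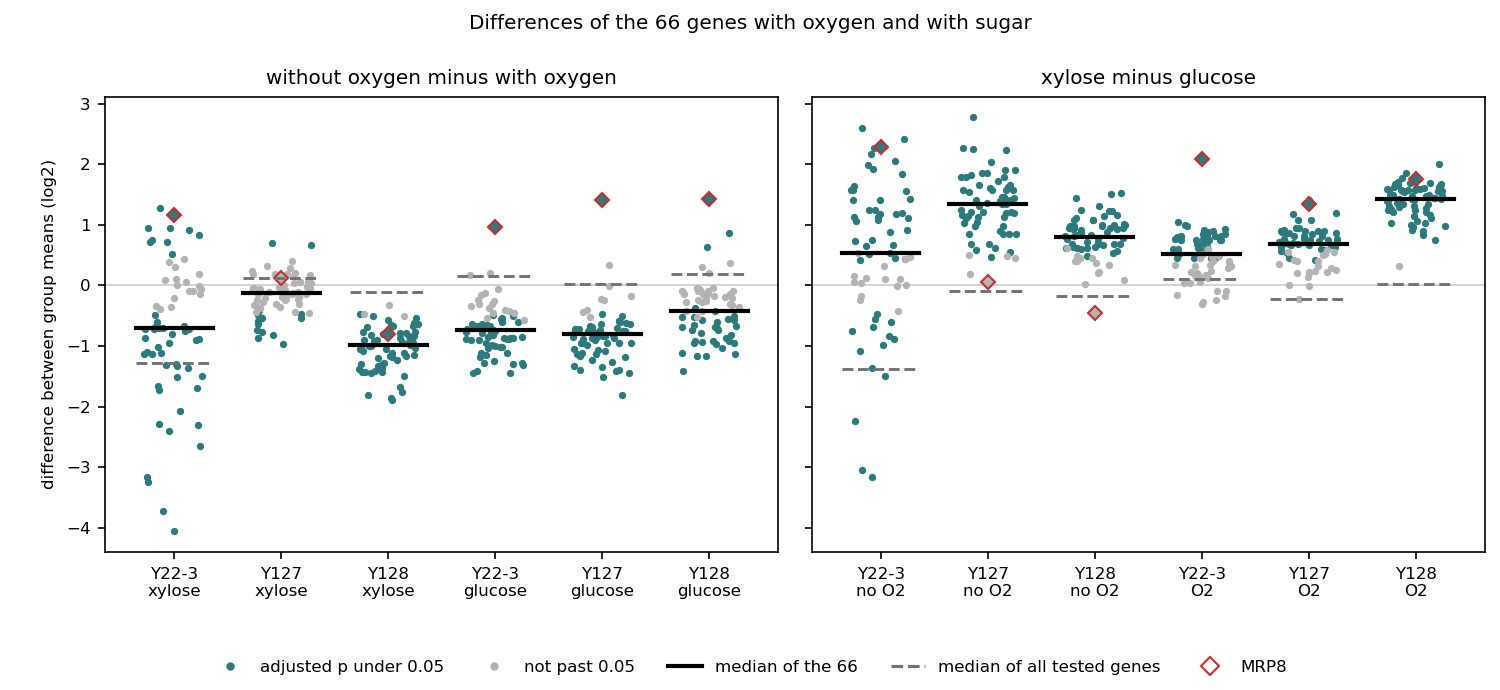
Difference between group means in log2 (vertical axis) of each of the 66 genes, for cultures without oxygen minus cultures with oxygen (left panel) and for xylose minus glucose (right panel), by strain. Points and diamonds (MRP8) are teal where the adjusted p was under 0.05 and grey otherwise, black bars are medians of the 66 genes and dashed bars medians of all tested genes. All genes lie below 0 without oxygen on xylose in Y128 and above 0 on xylose with oxygen in Y128, while in Y22-3 the oxygen difference on xylose runs from -4.06 to 1.28.

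On xylose the strains differed, and in Y128, which grew without oxygen on this sugar, nearly all of the genes fell. In Y128, 63 of the 66 genes fell and 0 rose, against 26.3% of all tested genes lower and 21.0% higher. The median change was -0.99, or 1.99-fold, in a range of -1.90 to -0.32, and in all 66 genes both anaerobic libraries lay below both aerobic ones, as they did in 48.8% of all tested genes. The genes that missed the threshold were RSM22 at -0.51 ± 0.26, RSM19 at -0.48 ± 0.21 and MRPL4 at -0.32 ± 0.20. RSM28, which encodes mS46 of the small subunit, changed most, at 3.92 and 4.003 log2 RPKM without oxygen, against 5.78 and 5.94 with it (change -1.90 ± 0.24, adjusted p = 1.6e-06, limma). MRP2, which encodes uS14m, stood at 5.21 and 5.52 without oxygen, against 7.27 and 7.17 with it (change -1.85 ± 0.20, adjusted p = 2.3e-07, limma). MRP8, which rose on glucose, fell with the rest here, by 0.80 ± 0.20 (adjusted p = 0.0031, limma).

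In Y127 on xylose, where the anaerobic culture did not grow, few genes passed the test. There 12 of the 66 fell and 2 rose, against 23.5% of all tested genes lower and 33.6% higher, and the median change was -0.13. RSM26, which encodes mS42, fell by 0.97 ± 0.22, and MRPL32, which encodes bL32m, a protein matured by the m-AAA protease, fell by 0.87 ± 0.22. MRP7, which encodes bL27m near the peptidyl transferase centre, rose by 0.69 ± 0.18, and MRPS12 rose by 0.67 ± 0.17. These counts rested on single libraries. Without replicate A of the aerobic libraries 2 genes fell and 7 rose, and without replicate B 23 fell and 1 rose. Without replicate A of the anaerobic libraries 4 fell and 3 rose, and centred libraries gave 37 lower and 2 higher, against 37.3% and 28.9% of all tested genes.

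In Y22-3 on xylose the genes did not move as a block. Without oxygen 39 of the 66 genes fell and 10 rose, against 63.7% of all tested genes lower and 20.7% higher. The median change was -0.70, where that of all tested genes was -1.28, and relative to that shift 40 genes were higher and 14 lower (libraries centred on their median), against 40.3% of all tested genes higher and 45.0% lower. Across the 66 genes the change on xylose had an SD of 1.16 in Y22-3, of 0.34 in Y127 and of 0.36 in Y128, with a median SE of 0.20 for a single gene. Over all tested genes the SD was also largest in Y22-3, at 2.00, against 1.31 in Y127 and 1.35 in Y128. In Y22-3, 9 genes changed by -2 or less, 14 lay between -2 and -1, 25 between -1 and 0, and 18 at 0 or above. The cytosolic ribosomal protein genes had a median change of -3.87 in the same comparison, and the part of growth in these differences was not tested.

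MRP13 and MRPL11 fell most. MRP13, which encodes mS44 of the small subunit, stood at 1.65 and 0.80 log2 RPKM in anaerobic Y22-3 on xylose, against 5.57 and 5.00 with oxygen (change -4.06 ± 0.24, 16.7-fold, adjusted p = 6.5e-12, limma). MRPL11, which encodes uL10m of the stalk, stood at 1.42 and 1.09 without oxygen, against 5.15 and 4.79 with it (change -3.72 ± 0.20, 13.2-fold, adjusted p = 1.4e-12, limma). For each gene both anaerobic libraries lay far below both aerobic ones. The other genes that changed by -2 or less were MRPL32 (-3.24), MRPL25 (-3.16), MRP4 (-2.64), MRPL7 (-2.41), MRP51 (-2.30), MRP21 (-2.29) and MRPL20 (-2.08). They encode proteins of both subunits, among them uS2m (MRP4), bS21m (MRP21), uL5m (MRPL7) and mL59 (MRPL25).

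MRPS17 and MRP8 rose most. MRPS17, which encodes uS17m, a protein that binds ribosomal RNA early in assembly of the small subunit in bacteria, stood at 6.98 and 6.96 log2 RPKM without oxygen, against 5.94 and 5.44 with it (change 1.28 ± 0.25, adjusted p = 8.1e-05, limma). MRP8 stood at 9.29 and 9.25 without oxygen, against 7.94 and 8.27 with it (change 1.16 ± 0.20, adjusted p = 2.2e-05, limma). The other genes that rose were MRPL24 (0.95), RSM18 (0.95), MRPL33 (0.91), MRPL28 (0.84), MRP49 (0.76), MRPL51 (0.71), MRPL31 (0.71) and MRPL35 (0.51). All 10 of these genes fell in Y128 on xylose, as did 211 of the 1198 tested genes that rose in Y22-3 (3.64% of all tested genes). Of the 39 that fell in Y22-3, 37 fell in Y128. Over all tested genes 3696 fell in Y22-3, and 1120 of these fell in Y128 (19.3% of all tested genes). As 63 of the 66 genes fell in Y128, nearly any subset of them would have fallen there, so these overlaps add little to that count. MRP8 made up 14.0% and 15.1% of the summed RPKM of the 66 genes in the anaerobic Y22-3 libraries, against 4.35% and 6.98% with oxygen.

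**Figure D3:**
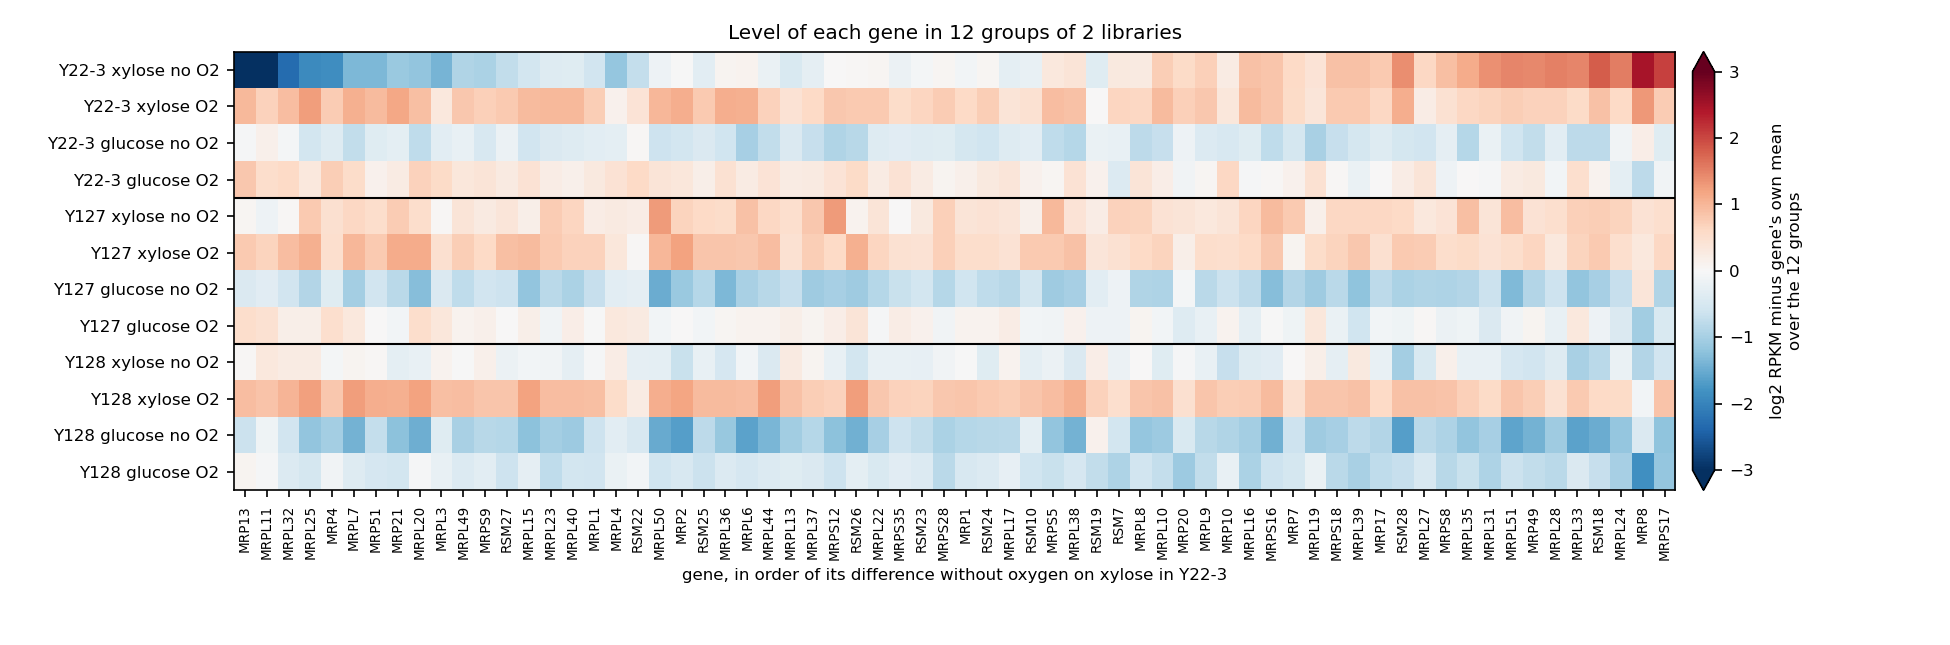
Mean log2 RPKM of each of the 66 genes in each of the 12 groups of 2 libraries, less that gene's own mean over the 12 groups (colour). Genes are in the order of their difference without oxygen on xylose in Y22-3. The extremes at both ends of that order stand out in anaerobic xylose of Y22-3, while the other groups are more even.

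An interaction term tested whether the strains responded differently to oxygen on xylose. Only genes past the threshold (limma, adjusted p under 0.05) are counted here as above or below 0. The change in Y127 minus the change in Y22-3 was above 0 for 31 genes and below 0 for 8, against 65.3% and 8.90% of all tested genes. The change in Y128 minus the change in Y22-3 was above 0 for 12 genes and below 0 for 26, against 59.3% and 19.1% of all tested genes. For Y127 the median was 0.58 over the 66 genes and 1.35 over all tested genes, and for Y128 it was -0.35 and 1.25. With centred libraries 8 genes were above and 47 below 0 for Y127, against 32.1% and 34.5% of all tested genes, so the direction for Y127 depended on the scaling. For Y128 they were 5 above and 54 below 0, against 40.1% and 38.0%.

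Single genes differed by more than the medians. MRP13 differed by 3.33 ± 0.35 between Y127 and Y22-3 (adjusted p = 5.9e-08, limma) and by 3.18 ± 0.35 between Y128 and Y22-3 (adjusted p = 7.5e-08, limma). MRPL11 differed by 2.90 ± 0.28 for Y127 and 3.18 ± 0.28 for Y128. In the other direction, MRPS17 differed by -1.39 ± 0.35 for Y127 and -2.71 ± 0.35 for Y128. MRP8 differed by -1.04 ± 0.29 for Y127, and MRPL33 by -2.67 ± 0.34 for Y128.

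**Figure D4:**
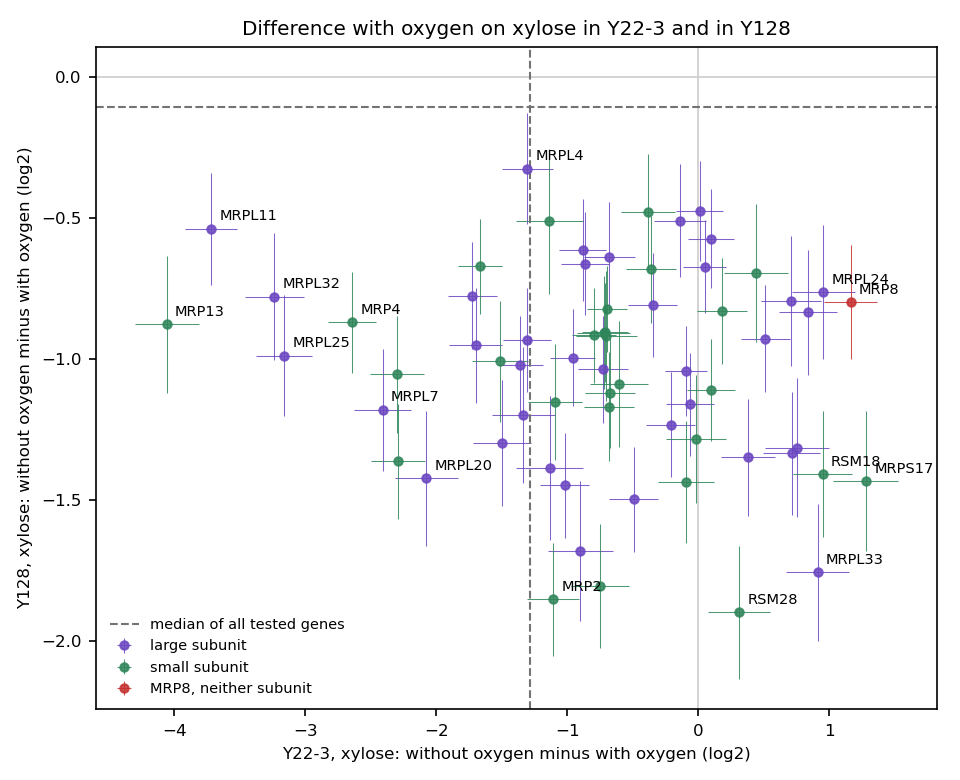
Change without oxygen on xylose in log2 for each of the 66 genes in Y22-3 (horizontal axis) and Y128 (vertical axis), coloured by subunit, with bars of 1 SE. In Y128 the genes keep between -1.90 and -0.32, while in Y22-3 they range from MRP13 at -4.06 to MRPS17 at 1.28.

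With oxygen, the genes that passed the test on xylose against glucose had all risen, in each of the 3 strains, and they were most in Y128 and fewest in Y22-3. In Y128, 65 of the 66 genes rose and 0 fell, against 24.3% of all tested genes higher and 18.6% lower. The median change was 1.43, or 2.70-fold, with an SD across genes of 0.29. The gene that missed the threshold was RSM22, at 3.55 and 3.58 log2 RPKM on xylose, against 3.25 and 3.24 on glucose (change 0.32 ± 0.26). MRPS17 changed most, at 5.75 and 5.79 on xylose, against 3.78 and 3.75 on glucose (change 2.01 ± 0.25, adjusted p = 1.8e-06, limma). MRPL39 followed at 7.45 and 7.43 on xylose, against 5.64 and 5.54 on glucose (change 1.85 ± 0.18, adjusted p = 4.3e-08, limma).

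In Y127 with oxygen, 45 of the 66 genes rose on xylose and 0 fell, against 14.0% of all tested genes higher and 25.8% lower. The median change was 0.69, and MRPL39 rose most, by 1.41 ± 0.18. The rise was called for 16 genes without replicate A of the xylose libraries, and for 18 without the left of the glucose columns, whose replicate letters are not known. In Y22-3 with oxygen, 36 genes rose and 0 fell, against 31.0% of all tested genes higher and 22.1% lower, with a median change of 0.52 and with 7 of the genes below 0. MRP8 rose most there, at 7.94 and 8.27 log2 RPKM on xylose, against 6.08 and 5.97 on glucose (change 2.08 ± 0.20, adjusted p = 4.4e-08, limma), and RSM7, which encodes uS7m, rose by 1.05 ± 0.19. Without replicate A of the xylose libraries, the shallowest of all, 14 genes rose and 2 fell, and without replicate B of the glucose libraries 22 rose. Centred libraries gave 33 higher and 4 lower in Y22-3, against 28.6% and 34.6% of all tested genes. In all 3 strains 33 genes rose, as did 695 of the 5801 tested genes.

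Without oxygen, most genes were higher on xylose than on glucose in Y127 and Y128. In Y127, 61 of the 66 genes were higher and 0 lower, against 21.8% of all tested genes higher and 28.4% lower, and the median difference was 1.35. MRPL50, which encodes bL9m, stood at 6.37 and 7.01 log2 RPKM on xylose, against 4.12 and 3.71 on glucose (difference 2.77 ± 0.26, adjusted p = 2.8e-08, limma), and MRPS12 was higher by 2.26 ± 0.17. In Y128, 53 genes were higher and 0 lower, against 12.3% higher and 26.5% lower, and the median difference was 0.80. MRPL6, which encodes uL6m, led there at 5.69 and 5.61 on xylose, against 4.08 and 4.16 on glucose (difference 1.53 ± 0.17, adjusted p = 9.9e-07, limma), followed by MRPL7 at 1.51 ± 0.22. The count in Y128 was 31 without replicate B of the xylose libraries and 31 without replicate B of the glucose libraries. In both Y127 and Y128, 52 genes were higher, against 7.91% of all tested genes.

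In Y22-3 without oxygen, 37 genes were higher on xylose and 14 lower, against 21.9% of all tested genes higher and 64.7% lower. The median difference was 0.53 where that of all tested genes was -1.39, and with centred libraries 58 were higher and 3 lower, against 40.4% and 45.9%. RSM18, which encodes bS18m, stood at 6.41 and 6.44 log2 RPKM on xylose, against 3.72 and 3.93 on glucose (difference 2.60 ± 0.22, adjusted p = 9.4e-10, limma). MRPS17 differed by 2.42 ± 0.25, MRPL11 by -3.17 ± 0.20 and MRP13 by -3.05 ± 0.24. MRP8 was higher on xylose by 2.28 ± 0.20 in Y22-3, while its difference was 0.06 ± 0.20 in Y127 and -0.46 ± 0.20 in Y128, neither past the threshold.

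On glucose with oxygen, Y128 was lower than Y22-3 in all 66 genes with no overlap of the libraries, as it was in 54.0% of all tested genes. Of the 66 genes, 62 passed the test as lower and 0 as higher, against 17.1% of all tested genes lower and 3.33% higher. The median difference was -0.80, or 1.74-fold, and the SD across the 66 genes was 0.13, with a median SE of 0.20 for a single gene and an SD of 0.65 over all tested genes. MRPS12 stood at 6.02 and 5.94 log2 RPKM in Y128, against 7.06 and 6.98 in Y22-3 (difference -1.04 ± 0.17, adjusted p = 1.6e-04, limma). The range ran from MRP8 at -1.08 to RSM7 at -0.52. Leaving out replicate A or replicate B of the Y128 libraries left 31 genes past the threshold in either case, leaving out replicate A of the Y22-3 libraries left 21, and leaving out their replicate B left 39. Fewer genes passed than in any of these fits when 1 replicate letter was left out of both compared groups, leaving 1 library each. The median difference in the 4 fits that left out 1 of these libraries lay between -0.83 and -0.78.

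On glucose without oxygen, Y128 was lower than Y22-3 for 28 genes and higher for 0, against 14.3% of all tested genes lower and 6.26% higher. All 28 were among the 62. Over all tested genes 829 were lower without oxygen, and 417 of these were lower with it too (7.19% of all tested genes). As 62 of the 66 genes were lower with oxygen, nearly any subset of them would have been among those 62. The median difference was -0.56. RSM28 stood at 3.40 and 3.29 log2 RPKM in Y128, against 4.39 and 4.52 in Y22-3 (difference -1.11 ± 0.24, adjusted p = 0.0022, limma), and MRP2 differed by -1.09 ± 0.20. Leaving out replicate A of the Y128 libraries left 17 genes and leaving out their replicate B left 4. Leaving out replicate A of the Y22-3 libraries left 16 and leaving out their replicate B left 5. Without replicate B in both compared groups, fewer genes passed than in any of these fits. Without replicate A in both, the count lay within their range.

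On xylose with oxygen, Y128 was higher than Y22-3 for 5 genes and lower for 1, against 16.3% of all tested genes higher and 31.2% lower, and the median difference was 0.09. The gene that was lower was MRP8, at 6.66 and 6.76 log2 RPKM in Y128, against 7.94 and 8.27 in Y22-3 (difference -1.398 ± 0.20, adjusted p = 1.3e-05, limma). RSM19 was higher by 0.67 ± 0.21 and MRPL27, which encodes mL41, by 0.66 ± 0.21. With centred libraries 39 genes were higher and 1 lower, against 31.5% and 23.3%. The higher calls numbered 0 without replicate B of the Y22-3 libraries and 1 without replicate A or without replicate B of the Y128 libraries.

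On xylose without oxygen, where Y128 grew and the other strains did not, Y128 was higher than Y22-3 for 17 genes and lower for 30, against 58.2% of all tested genes higher and 27.7% lower, with a median of -0.25 where all tested genes had 1.04. Y127 was higher than Y22-3 for 33 genes and lower for 11, against 61.2% higher and 20.4% lower, with a median of 0.43 where all tested genes had 1.13. Relative to that shift 9 genes were higher and 51 lower in Y128, against 46.7% and 41.2% of all tested genes, and 15 were higher and 37 lower in Y127, against 43.6% and 38.6%. MRPL11 stood at 4.55 and 4.64 log2 RPKM in Y128, against 1.42 and 1.09 in Y22-3 (difference 3.34 ± 0.20, adjusted p = 3.5e-12, limma). MRP8 stood at 5.77 and 6.05 in Y128, against 9.29 and 9.25 in Y22-3 (difference -3.36 ± 0.20, 10.3-fold, adjusted p = 4.2e-12, limma). Between Y127 and Y22-3, MRP13 differed by 3.13 ± 0.24 and MRP8 by -2.04 ± 0.20.

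Y128 was also lower than Y127 in anaerobic xylose, for 47 of the 66 genes with 0 higher, against 30.3% of all tested genes lower and 25.9% higher. The median difference was -0.75. MRPL33 stood at 4.81 and 5.00 log2 RPKM in Y128, against 6.35 and 6.85 in Y127 (difference -1.70 ± 0.24, adjusted p = 7.5e-06, limma), and RSM28 differed by -1.62 ± 0.24. The count was 29 without replicate B of the Y127 libraries. The strain comparisons share groups with each other and with the oxygen and sugar comparisons.

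The 8 libraries in galactose and sorbitol have no replicates, so their differences are given without a test, and a gene was counted if it differed by at least 1 on the log2 scale. In aerobic galactose the 66 genes reached a median level of 6.28 log2 RPKM in Y128 and of 6.26 in Y22-3, the highest of all 20 conditions. Against aerobic glucose this was a median difference of 1.55 in Y128, with 64 genes past the limit against 20.0% of all tested genes, and of 0.81 in Y22-3, with 13 genes past it against 17.1%. Without oxygen in galactose the genes were lower than with it in Y128, by a median difference of -1.26, where 52 genes passed the limit against 23.1% of all tested genes. In Y22-3 the median difference was -2.23, where 64 genes passed against 58.2%. In Y22-3 the differences ran from MRPL20 at -3.60 to MRP8 at 0.03. Over all tested genes the median difference without oxygen in galactose was -0.51 in Y128 and -1.25 in Y22-3.

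In aerobic sorbitol, in which neither strain grew, the genes were lower than in aerobic galactose, with a median difference of -2.06 in Y128 and -2.03 in Y22-3. Over all tested genes that median was -0.28 in Y128 and -0.69 in Y22-3. The limit was passed by 64 genes in Y128, against 29.6% of all tested genes, and by 59 in Y22-3, against 41.0%. MRPL32 differed most in both strains, by -3.07 in Y128 and -3.999 in Y22-3, and MRP8 was higher, by 0.72 in Y128 and 0.65 in Y22-3. The 9 genes that changed by -2 or less in anaerobic xylose of Y22-3 had medians of -2.70 in Y128 and -3.02 in Y22-3 in this comparison. Without oxygen in sorbitol, 33 genes in Y128 and 52 in Y22-3 were lower by the limit than with oxygen, against 60.6% and 72.2% of all tested genes. In anaerobic sorbitol of Y22-3, MRP8 stood at 8.92 log2 RPKM where the median of the 66 genes was 2.85, and it made up 48.3% of their summed RPKM, against 17.6% in aerobic sorbitol. The least covered genes in the anaerobic sorbitol libraries had an estimated 4 reads in Y128 (MRPS16) and 8 in Y22-3 (RSM27).

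The medians of the 2 subunits lay within 0.23 of each other in every tested comparison. They lay furthest apart on xylose against glucose without oxygen in Y128, where the median was 0.92 for the large subunit, with 33 of 37 genes higher, and 0.69 for the small subunit, with 20 of 28 higher. On glucose without oxygen, Y128 was lower than Y22-3 for 19 genes of the large subunit and 8 of the small. Without oxygen on xylose in Y128, the median change was -0.99 for the large subunit, with 36 of 37 genes lower, and -1.03 for the small subunit, with 26 of 28 lower. In Y22-3 without oxygen on xylose, it was -0.73 for the large subunit, with 21 genes lower and 7 higher, and -0.70 for the small, with 18 lower and 2 higher. On xylose against glucose with oxygen in Y128, the medians were 1.42 and 1.43. The 40 genes with a bacterial counterpart and the 24 without one had medians of -1.01 and -0.999 without oxygen on xylose in Y128, and of -0.66 and -0.86 without oxygen on glucose in Y22-3. These are descriptions of the medians, and no test was made between the classes.

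Genes of known role fell to differing degrees without oxygen on xylose in Y128. MRPS5 (uS5m), MRPS28 (uS15m), RSM23 (mS29, a GTP-binding protein) and MRP1 (mS43, related to superoxide dismutases) fell by 0.82 to 1.09. MRP10 (mS37, a twin-cysteine protein that is oxidised on import), MRP21, MRP51 (bS1m), MRPL16 (uL16m), MRPL36 (bL31m), MRPL38 (uL14m) and MRP49 (mL61) fell by 1.05 to 1.498. In Y22-3 without oxygen on xylose, MRP49 changed by 0.76 ± 0.25 and MRP21 by -2.29 ± 0.20. Over the 24 duplicated libraries, the level of a gene correlated with the median of the other 65 genes with an r of 0.25 for MRPL11, 0.32 for MRP8 and 0.40 for MRP13, the lowest of the 66. These correlations share library totals and groups, and are given as a description only. MRP4, MRPL19 and MRPL51 overlap another gene in the RefSeq annotation of S288C, so that reads in the overlap could belong to either.

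The ribosomal proteins that the name rule leaves out were counted as a list of 14 genes. Without oxygen on xylose in Y128 12 of them fell and 0 rose, with a median change of -0.87, where 26.3% of all tested genes fell. On xylose against glucose with oxygen in Y128 14 rose, with a median of 1.43, where 24.3% of all tested genes rose. Y128 was lower than Y22-3 on aerobic glucose for 13, with a median of -0.79, and for 17.1% of all tested genes. Without oxygen on glucose, 9 fell and 1 rose in Y22-3, 7 fell and 1 rose in Y127, and 2 fell and 4 rose in Y128, where the falls over all tested genes were 27.6% in Y22-3, 32.9% in Y127 and 28.8% in Y128. On glucose in Y22-3, NAM9 (uS4m) changed by -0.43 ± 0.17, YML6 (uL4m) by -0.61 ± 0.19 and PET123 (mS26) by -0.66 ± 0.22. VAR1, which the mitochondrial genome encodes, rose there by 1.78 ± 0.23. YNL122C, which RefSeq names MRP35, rose by 1.51 ± 0.22 on xylose against glucose with oxygen in Y128 and fell by 0.68 ± 0.22 without oxygen on xylose in that strain.

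Most genes of 4 lists for other parts of mitochondrial translation also rose on aerobic xylose in Y128. Of 9 translation factors 9 rose there, with a median of 1.42, as did 14 of 16 genes for the charging of mitochondrial tRNAs, 11 of 16 translational activators and 6 of 10 genes of ribosome assembly and membrane anchoring, against 24.3% of all tested genes. Without oxygen on glucose the translation factors had medians of 0.05 in Y22-3, 0.04 in Y127 and 0.30 in Y128. MEF1, the elongation factor G of mitochondria, fell on glucose in Y22-3, by 1.43 ± 0.18. Without oxygen on xylose in Y22-3, 12 of the tRNA charging genes fell and 2 rose, with a median of -1.58, against 63.7% and 20.7% of all tested genes. Of the 8 protein-coding genes of the mitochondrial genome, 7 rose without oxygen on glucose in Y22-3 with a median of 1.32, 6 rose in Y127 with a median of 2.21, and 8 rose in Y128 with a median of 2.33. Over all tested genes 37.7% rose in Y22-3, 35.3% in Y127 and 39.6% in Y128.

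The nuclear genes for subunits of the respiratory chain and the ATP synthase were followed as a list of 34. On xylose against glucose with oxygen in Y128 34 rose, with a median of 2.49, against 24.3% of all tested genes. Without oxygen on xylose in Y128 34 fell, with a median of -2.49, against 26.3%. In Y22-3 without oxygen on xylose, 12 fell and 10 rose, against 63.7% and 20.7%. The list of cytosolic ribosomal protein genes, whose transcripts are abundant in growing cells, held 117. Without oxygen on xylose 116 of them fell in Y22-3, 116 in Y127 and 94 in Y128, with medians of -3.87 in Y22-3, -2.57 in Y127 and -0.79 in Y128, where 63.7%, 23.5% and 26.3% of all tested genes fell in these strains. On xylose with oxygen 115 of them were lower in Y22-3, 72 in Y127 and 73 in Y128, against 22.1%, 25.8% and 18.6% of all tested genes. On aerobic glucose in Y128 against Y22-3, 1 was lower and 0 were higher, against 17.1% and 3.33%. Many cytosolic ribosomal proteins are encoded by pairs of near-identical genes, whose counts are uncertain.

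HAP4 encodes the limiting subunit of the Hap complex that activates respiratory genes. HAP4 rose on xylose with oxygen by 1.64 ± 0.23 in Y22-3, 2.11 ± 0.23 in Y127 and 3.48 ± 0.23 in Y128. HAP4 fell by 2.04 ± 0.23 without oxygen on xylose in Y128, rose by 1.70 ± 0.23 in Y22-3, and differed by -1.58 ± 0.23 between Y128 and Y22-3 on aerobic glucose. On glucose HAP4 stood at 5.63 and 5.91 log2 RPKM without oxygen in Y127, against 4.83 and 5.06 with it. In Y128 these levels were 4.64 and 4.59, against 4.11 and 4.12, and in Y22-3 5.04 and 5.62, against 5.735 and 5.66. PUF3 encodes the RNA-binding protein named above, which is known to promote decay of its targets in glucose. PUF3 rose on glucose without oxygen by 0.90 ± 0.17 in Y22-3, 0.996 ± 0.17 in Y127 and 1.42 ± 0.17 in Y128. PUF3 also rose on xylose with oxygen, by 1.24 ± 0.17 in Y22-3 and 1.18 ± 0.17 in Y128, while its difference in Y127 was 0.42 ± 0.17 (adjusted p = 0.051, limma). Its difference without oxygen on xylose in Y128 was -0.02 ± 0.17. PUF3 stood at 6.75 and 6.715 log2 RPKM without oxygen on xylose in Y22-3, against 6.385 and 6.116 with it. In Y127 these levels were 5.97 and 6.475, against 5.695 and 5.23. The part of either regulator in the results on the 66 genes was not tested.

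**Figure D5:**
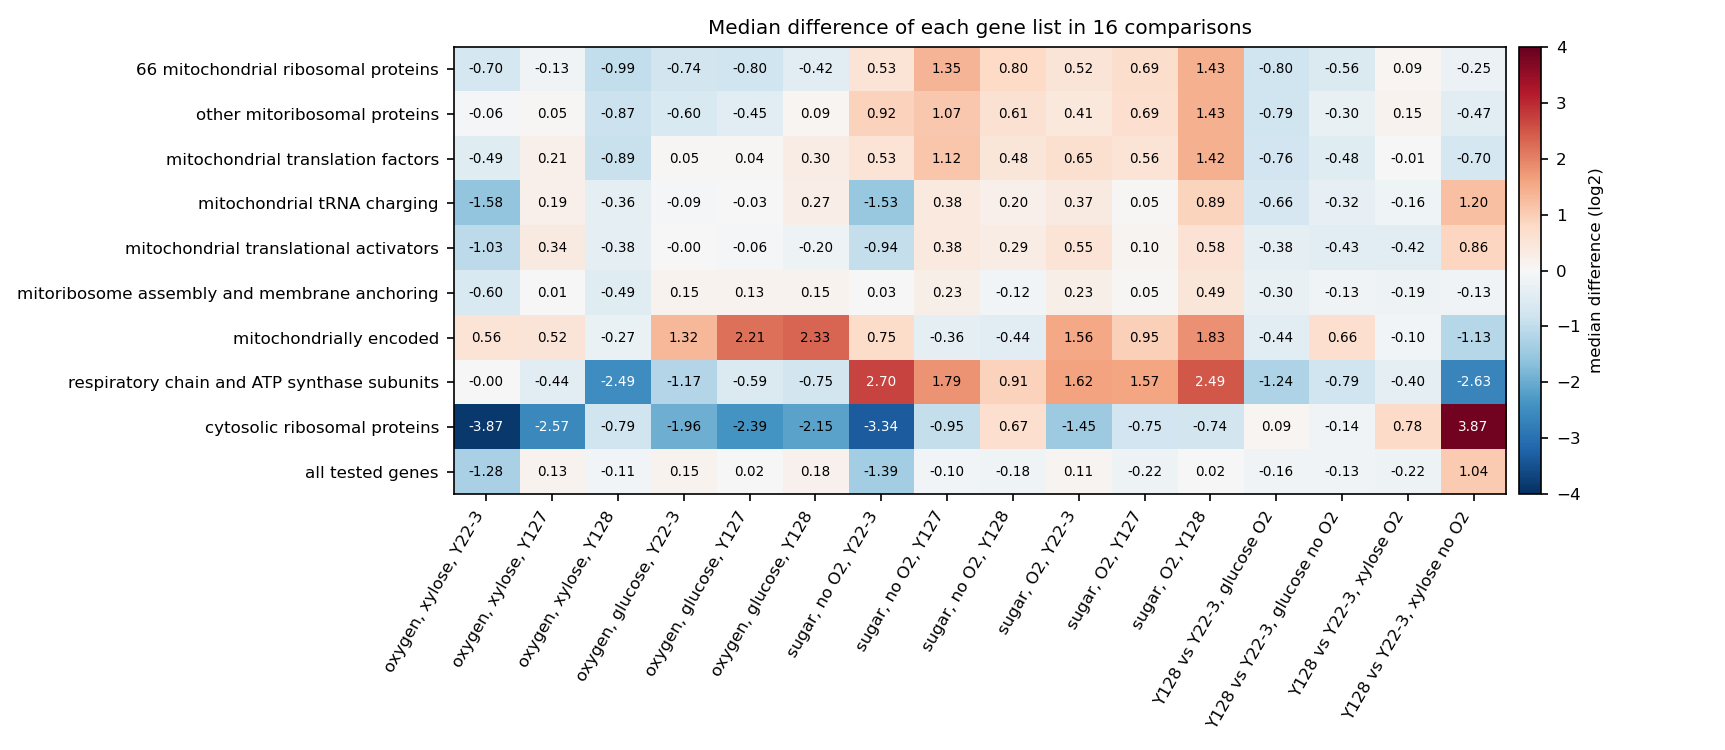
Median difference in log2 of the 66 genes, of 8 other gene lists and of all tested genes (rows) in 16 comparisons (columns), where oxygen means without minus with oxygen and sugar means xylose minus glucose. On xylose against glucose with oxygen, the 66 genes and the respiratory subunits are above 0 and the cytosolic ribosomal proteins below 0 in all 3 strains.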

How the data were processed

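RNA from 32 libraries of 3 strains was analysed from the table of log2 RPKM values that the authors deposited. According to their notes, reads were trimmed with Trimmomatic (0.3.0), aligned to the Y22-3 genome with Bowtie2 (2.2.2), counted per gene with HTSeq (0.6.0) and scaled to gene length and library total. Counts were not used here, and depth was estimated from the values of genes without reads, taking 1 read as added. With that, 82.7 to 88.9% of values under 200 reads came out whole (tolerance 0.1).

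The 12 duplicated groups were fitted in 1 model with limma (3.58.1, R 4.3.3) with an intensity trend, and p-values of 20 comparisons were adjusted over all 5801 tested genes by the Benjamini-Hochberg method, with a threshold of 0.05. Duplicates came from different days. Strain comparisons and others that share groups are not independent. The 4 glucose columns of Y127 gave a condition but no usable replicate letter, and were left out of fits with the replicate as a block. Named were, for each comparison, the 2 genes with the largest change in each direction among those past the threshold whose libraries did not overlap, the 3 highest and the 3 lowest in level, members of known role, and 7 genes of other lists. Genes beyond these were named after their values were seen. The genes and lists were chosen with earlier results of these data known. The procedure was tested on data simulated for oxygen on xylose in Y128, with 200 of 5456 genes changed. It recovered 188 of them, and 88 of the 100 changed 2-fold, with 19 false calls. The simulated duplicates had no shift between libraries, unlike the real ones. Alternatives were centring, log2(RPKM + 1), no filter, fits of the compared libraries alone, the replicate block, a 1.5-fold threshold and leaving out libraries, of which the omission of single libraries was added after seeing the data. Gene names and neighbours came from the RefSeq annotation of S288C, which is another build than the authors used, so no coordinates or sequences are given.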

Additional observations from a re-analysis of the deposited data

Results flagged for a closer look

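The response to oxygen on xylose differed between strains in the interaction test (limma, Benjamini-Hochberg adjusted p under 0.05), and the genes named for it are given here as values. Between Y127 and Y22-3 the change differed for 39 of the 66 genes, 31 above 0 and 8 below, against 65.3% and 8.90% of all tested genes. MRP13 differed by 3.33 and MRPL11 by 2.90, while MRPS17 differed by -1.39 and MRP8 by -1.04. For Y128 against Y22-3, 38 of the 66 genes differed, 12 above 0 and 26 below, against 59.3% and 19.1% of all tested genes. MRP13 differed by 3.18 and MRPL11 by 3.18, while MRPS17 differed by -2.71 and MRPL33 by -2.67. Both tests share the Y22-3 libraries. Y22-3 and Y127 did not grow in anaerobic xylose while Y128 did, so for Y128 against Y22-3 strain and growth cannot be told apart.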

How the results depend on the processing

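Values are numbers of the 66 genes past the threshold in either direction. With log2(RPKM + 1) in place of the deposited values, and with no filter, every count of the 20 comparisons stayed within 1.5 times its value. With centred libraries the counts were 60 for oxygen on glucose in Y128, 54 for oxygen on xylose in Y22-3, 39 for oxygen on xylose in Y127, 55 for the interaction for Y127, 59 for the interaction for Y128, 52 for Y127 against Y22-3 in anaerobic xylose and 40 for Y128 against Y22-3 in aerobic xylose, and the prevailing direction turned for oxygen on xylose in Y22-3, the interaction for Y127 and Y127 against Y22-3 in anaerobic xylose. In fits of the compared libraries alone they were 2 for oxygen on xylose in Y127, 26 for aerobic xylose in Y127, 3 for Y128 against Y22-3 in aerobic xylose and 18 for Y128 against Y22-3 in anaerobic glucose. Against a 1.5-fold threshold they were 12 for oxygen on glucose in Y22-3, 18 for oxygen on glucose in Y127, 6 for oxygen on glucose in Y128, 26 for oxygen on xylose in Y22-3, 0 for oxygen on xylose in Y127, 26 for oxygen on xylose in Y128, 19 for the interaction for Y127, 23 for the interaction for Y128, 2 for aerobic xylose in Y22-3, 4 for aerobic xylose in Y127, 6 for anaerobic xylose against glucose in Y128, 22 for Y127 against Y22-3 in anaerobic xylose, 28 for Y128 against Y22-3 in anaerobic xylose, 13 for Y128 against Y127 in anaerobic xylose, 1 for Y128 against Y22-3 in aerobic xylose, 0 for Y128 against Y22-3 in aerobic glucose and 0 for Y128 against Y22-3 in anaerobic glucose, and the prevailing direction turned for Y128 against Y22-3 in aerobic xylose.

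Leaving out a replicate in turn, with the spread of the lone library taken from the other groups, gave 35 to 46 for oxygen on glucose in Y22-3, 49 to 57 for oxygen on glucose in Y127, 18 to 33 for oxygen on glucose in Y128, 41 to 49 for oxygen on xylose in Y22-3, 7 to 37 for oxygen on xylose in Y127, 45 to 59 for oxygen on xylose in Y128, 28 to 43 for the interaction for Y127, 28 to 40 for the interaction for Y128, 10 to 43 for aerobic xylose in Y22-3, 16 to 55 for aerobic xylose in Y127, 63 to 65 for aerobic xylose in Y128, 42 to 47 for anaerobic xylose against glucose in Y22-3, 56 to 61 for anaerobic xylose against glucose in Y127, 19 to 47 for anaerobic xylose against glucose in Y128, 33 to 44 for Y127 against Y22-3 in anaerobic xylose, 39 to 44 for Y128 against Y22-3 in anaerobic xylose, 22 to 48 for Y128 against Y127 in anaerobic xylose, 1 to 9 for Y128 against Y22-3 in aerobic xylose, 2 to 39 for Y128 against Y22-3 in aerobic glucose and 1 to 17 for Y128 against Y22-3 in anaerobic glucose. The lowest counts for Y128 against Y22-3 on glucose, with and without oxygen, came from fits without 1 replicate letter in both compared groups. The prevailing direction turned in some fits for oxygen on xylose in Y127 and for Y128 against Y22-3 in aerobic xylose. With the replicate letter as a block the counts were 50 for oxygen on glucose in Y22-3, 36 for oxygen on glucose in Y128, 49 for oxygen on xylose in Y22-3, 15 for oxygen on xylose in Y127, 62 for oxygen on xylose in Y128, 36 for the interaction for Y127, 38 for the interaction for Y128, 37 for aerobic xylose in Y22-3, 65 for aerobic xylose in Y128, 52 for anaerobic xylose against glucose in Y22-3, 55 for anaerobic xylose against glucose in Y128, 45 for Y127 against Y22-3 in anaerobic xylose, 48 for Y128 against Y22-3 in anaerobic xylose, 47 for Y128 against Y127 in anaerobic xylose, 5 for Y128 against Y22-3 in aerobic xylose, 61 for Y128 against Y22-3 in aerobic glucose and 28 for Y128 against Y22-3 in anaerobic glucose, each within 1.5 times the count without it. Same-lettered libraries did not as a rule deviate together, with r of -0.105 to 0.332 (median 0.0108) over 45 pairs of groups, 7 of them over 0.1, and 6 of these 7 were all the pairs among 4 groups (aerobic xylose and anaerobic glucose of Y22-3, anaerobic xylose of Y127 and anaerobic glucose of Y128, r 0.111 to 0.332). As not every pair was over 0.1, the letters were not taken to pair the samples. That rule cannot detect a batch shared by only part of the groups, and whether those 4 groups shared one was not tested. Among them, anaerobic glucose of Y22-3 and of Y128 (r 0.247) were compared directly. Of the values of named genes, 332 kept their call and 15 lost it with the same direction under the settings that keep all libraries, as did 93 and 11 without replicate A or B. The causes of these differences were not tested. With 2 libraries a group, small differences are at the limit of detection, and the few reads of the anaerobic sorbitol libraries limit single genes there.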
